A study of Homo sapiens with 12 samples.

Results

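The mitochondrial ribosomal protein genes are the nuclear genes for the protein subunits of the ribosome inside mitochondria. They were taken here as every gene whose listed symbol had the form MRPL or MRPS, a number and at most 1 closing letter, in either m6A peak list or in the table of differential m6A peaks. This gave 56 genes of 19340 gene IDs, 33 with MRPL symbols, named for the large subunit, and 23 with MRPS symbols, named for the small subunit. Genes were assigned to a subunit by symbol alone, which need not match the place of every protein. They held 180 of 68380 listed peaks and 24 of 8687 differential peaks, and 22 of them were among the 6396 genes with a listed expression value. Another 21 genes of the same symbol form in RefSeq, among them MRPL1, MRPL3, MRPS6 and MRPS23, were not listed as a gene name and were not analysed here as members.

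The mitochondrial ribosome translates the few messenger RNAs encoded by mitochondrial DNA, all of which specify subunits of the respiratory chain and ATP synthase. Its ribosomal RNAs come from mitochondrial DNA, whereas its proteins are translated in the cytosol from nuclear messenger RNAs and imported. Those nuclear messenger RNAs, and not the mitochondrial ones, are made by RNA polymerase II and processed in the nucleus, where the METTL3 complex places N6-methyladenosine (m6A). The demethylase FTO acts on m6A and on the related cap-adjacent m6Am.

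The cells were HGC27, an established line from an undifferentiated human gastric carcinoma. The tested cells carried a knockdown of FTO, which the protocol calls a knockdown and the genotype label a knockout, with titles that read sh1 to sh3. The control cells were labelled WT and Con, and the labels name no control hairpin. Each condition had 3 libraries of RNA fragments bound by an m6A antibody (IP) and 3 input libraries of the fragments before enrichment, 12 libraries in all, from poly(A) RNA. The labels do not say whether the numbered libraries came from separate cultures, so that the spread behind each p-value is the spread between these libraries and may be technical.

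FTO RNA had 0.786, 0.830 and 0.765 FPKM (fragments scaled for transcript length and library size) in the knockdown inputs, against 5.48, 5.68 and 5.52 FPKM in the control inputs. FTO thus fell by 1.87 as a difference of log2(FPKM + 1), with an SE of 0.0465 and an adjusted p of 4.99e-07 in limma. Correlations of log2 expression were 0.992 to 0.995 between input libraries of the same condition and 0.977 to 0.982 between conditions. By these correlations no library stood apart. The table lists FPKM where a gene has a differential peak and not elsewhere, and the read depth behind it is unknown. Among markers of the gastric epithelium, MUC1 was the 1 of 9 with a listed FPKM, at 1.44 ± 0.219 FPKM after knockdown and 1.24 ± 0.0415 FPKM in control cells (SD, n = 3 each). The fibroblast marker COL1A1, a collagen chain, had 147 ± 8.10 FPKM after knockdown and 169 ± 5.72 FPKM in control cells, and THY1 had 15.0 ± 0.515 FPKM after knockdown and 12.5 ± 0.606 FPKM in control cells (SD, n = 3 each). None of 5 immune and 3 endothelial markers had a listed FPKM. Each m6A peak list held peaks for 2 of the 5 immune and 1 of the 3 endothelial markers. Peaks were listed for 2 of the 9 gastric markers after knockdown and 3 in control. A missing FPKM is thus no sign of absent RNA.

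Changes in the expression of the mitoribosomal genes after FTO knockdown were small, the largest being 1.51-fold, in MRPL9. Of the 22 genes, 6 rose (MRPL9, MRPL36, MRPL49, MRPS34, MRPL4 and MRPL15), 1 fell (MRPS10) and 15 did not pass the test at an adjusted p of 0.05. All 22 genes passed the filter of a mean of at least 1 FPKM, the adjusted p-values were taken over all 4515 tested genes, and changes are differences of log2(FPKM + 1), knockdown minus control. The 7 called genes were 31.8% of the members, against 62.4% of all tested genes. The 6 that rose were 27.3% of the members, against 24.5% of all tested genes that rose, and the 1 that fell was 4.55%, against 37.9% of all tested genes. In bulk RNA, a change in the RNA per cell and a change in the share of cells that express a gene cannot be told apart.

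The size of the changes was also lower than among the other listed genes, at a similar precision. The median absolute change was 0.079 for the 22 members and 0.220 for all tested genes, with median SEs of 0.0597 and 0.0569. The members were more abundant, with a median of 13.4 FPKM against 5.42 FPKM for all tested genes. The signed median was 0.01 for the members and -0.07 for all tested genes. Knockdown and control libraries did not overlap for 8 members (36.4%), 6 of them higher and 2 lower after knockdown, against 67.8% of all tested genes. Summed over the 22 members, the level was 315.5, 317.0 and 323.0 FPKM after knockdown and 289.4, 292.0 and 309.8 FPKM in control libraries. Summed over all 6396 listed genes it was 86902, 83712 and 84326 FPKM after knockdown and 74330, 74289 and 78461 FPKM in control libraries, so both sums were higher after knockdown.

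**Figure D1:**
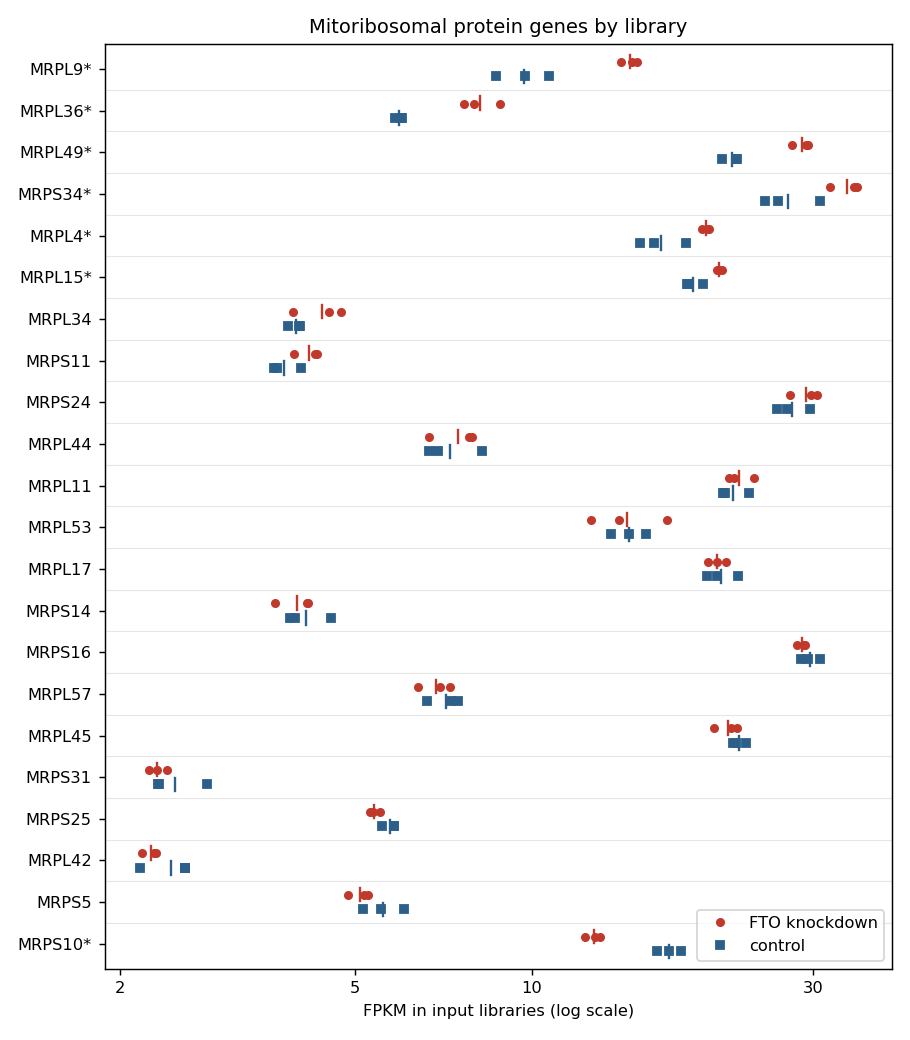
Expression of the 22 mitochondrial ribosomal protein genes with a listed FPKM, ordered by their change. Each point is 1 input library (red circles, FTO knockdown; blue squares, control), bars are the group means, the horizontal axis is FPKM on a log scale, and an asterisk marks the 7 genes called by limma. The groups stand apart in the top 6 rows and in the bottom row, MRPS10, and overlap in every other row but MRPS25.

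In the large subunit, 5 of 13 tested genes rose and none fell, against 24.5% and 37.9% of all tested genes. MRPL9, a large subunit protein with a bacterial counterpart, showed the largest rise. It had 14.2, 15.1 and 14.8 FPKM after knockdown, against 9.74, 8.70 and 10.7 FPKM in control cells. Every knockdown library was above every control library, and the change was 0.55 (SE 0.0686, adjusted p = 0.000296, limma). MRPL36, the counterpart of the smallest bacterial large subunit protein, had 7.99, 8.82 and 7.67 FPKM after knockdown, against 6.01, 5.86 and 5.99 FPKM in control cells. The control libraries lay close together and below all knockdown libraries, with a change of 0.40 (SE 0.0536, adjusted p = 0.000461, limma). MRPL49, a subunit found in mitochondrial and not in bacterial ribosomes, had 29.3, 27.7 and 29.5 FPKM after knockdown, against 21.1, 22.2 and 22.4 FPKM in control cells. Its groups were far apart relative to their spread, at a change of 0.38 (SE 0.0432, adjusted p = 0.000192, limma).

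MRPL4 and MRPL15, both with bacterial counterparts, rose by less. MRPL4 had 19.4, 20.0 and 19.9 FPKM after knockdown, against 15.3, 16.1 and 18.3 FPKM in control cells. The highest control library came near the knockdown libraries without reaching them, and the change was 0.24 (SE 0.0623, adjusted p = 0.00977, limma). MRPL15 had 20.8, 20.6 and 21.1 FPKM after knockdown, against 19.6, 18.4 and 18.3 FPKM in control cells. This was the smallest called change, 0.14 (SE 0.0400, adjusted p = 0.0143, limma), and it did not pass without control replicate 2 (adjusted p = 0.0547), without knockdown replicate 3 (adjusted p = 0.0569) or after quantile normalization (adjusted p = 0.0652). The summed level of the 13 large subunit genes was 191.0 to 193.9 FPKM after knockdown and 170.1 to 179.9 FPKM in control libraries. The sum over all 6396 listed genes, given above, was likewise higher in every knockdown library than in any control library.

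In the small subunit, 1 of 9 tested genes rose and 1 fell, against 24.5% and 37.9% of all tested genes. The difference between the subunits was not tested. MRPS34, a mitochondrion-specific subunit that stabilises the small subunit's ribosomal RNA and is mutated in a form of Leigh syndrome, was the most abundant member. It had 35.2, 32.1 and 35.6 FPKM after knockdown, against 24.9, 26.1 and 30.9 FPKM in control cells. The lowest knockdown library was just above the highest control library, and the change was 0.32 (SE 0.0799, adjusted p = 0.00832, limma). MRPS10, which has a bacterial counterpart in the head of the small subunit, had 12.3, 13.1 and 12.8 FPKM after knockdown, against 16.3, 18.0 and 17.1 FPKM in control cells. All knockdown libraries were below all control libraries, and MRPS10 fell by 0.40 (SE 0.0469, adjusted p = 0.000229, limma). The summed level of the 9 small subunit genes was 124.5 to 129.2 FPKM after knockdown and 118.5 to 129.9 FPKM in control libraries, and these ranges overlapped.

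The 15 members that did not pass had changes between -0.11 and 0.12, 10 of them negative and 5 positive, and their lowest adjusted p was 0.113 (limma). They included abundant small subunit genes. MRPS16 had 29.0, 28.2 and 29.1 FPKM after knockdown and 29.5, 28.6 and 30.9 FPKM in control cells. MRPS24 had 27.5, 29.8 and 30.6 FPKM after knockdown and 26.1, 27.2 and 29.7 FPKM in control cells. In both genes the groups overlapped. MRPL17, in the large subunit, had 20.0, 20.7 and 21.4 FPKM after knockdown and 19.8, 20.6 and 22.4 FPKM in control cells, also overlapping.

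Among the lower ones, MRPS5 had 4.87, 5.27 and 5.19 FPKM after knockdown and 6.06, 5.54 and 5.17 FPKM in control cells. MRPS11 had 4.32, 4.28 and 3.94 FPKM after knockdown and 3.69, 3.64 and 4.06 FPKM in control cells. MRPS14 had 3.67, 4.15 and 4.17 FPKM after knockdown and 3.88, 4.55 and 3.96 FPKM in control cells. In all of these the groups shared part of their range. MRPS31 was at 2.23 to 2.40 FPKM after knockdown and 2.31 to 2.80 FPKM in control cells, and MRPL42 at 2.18 to 2.30 FPKM after knockdown and 2.16 to 2.58 FPKM in control cells, so the lowest members lay near the filter.

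Scaling of the libraries changed the balance of calls. With the values as deposited, 39.3% of all called genes rose, against 52.5% after quantile normalization and 55.4% after centring each library on its median. With quantile normalization 9 members (40.9%) were called, against 60.2% of all tested genes, and with centring 10 (45.5%), against 60.2% of all tested genes. Each of the 7 called members kept its direction under both scalings. RefSeq lists pseudogenes for 16 of the 22 members, MRPL9, MRPL36, MRPL49, MRPL15 and MRPS10 among them, and reads shared with these copies could be split, so those levels are uncertain.

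The promoters of these genes are shown because the called members came from a gene class known for common promoter elements. Promoter windows from RefSeq (GRCh38.p14, 250 bases before to 50 bases after the start) matched 53 of the 56 members by symbol; MRPL13, MRPL15 and MRPL35 had none. The core CCGGAA, bound by ETS factors such as GABP, was present on either strand in 32 of 53 (60.4%), against 20.1% of 27305 genes and 26.6% of 15843 protein-coding genes. AAGATGG, a YY1 element, was present on either strand in 21 (39.6%), against 7.11% of all genes and 7.90% of protein-coding genes. GCATGC, the core of the NRF1 element, was present in 7 (13.2%), against 8.80% and 9.86%. In all, 42 members held CCGGAA or AAGATGG and 11 held both, and in none did matches of the pair share bases.

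The 100 bases before the start of the 6 called members with a promoter window are given below in order of their expression change, 5′ to 3′ on the gene's strand, with each CCGGAA and each AAGATGG, on either strand, in capitals.
MRPL9: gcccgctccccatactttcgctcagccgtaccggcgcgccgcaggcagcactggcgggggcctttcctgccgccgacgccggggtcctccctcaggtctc
MRPL36: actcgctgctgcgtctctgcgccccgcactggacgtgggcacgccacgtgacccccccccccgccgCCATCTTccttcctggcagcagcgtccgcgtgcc
MRPL49: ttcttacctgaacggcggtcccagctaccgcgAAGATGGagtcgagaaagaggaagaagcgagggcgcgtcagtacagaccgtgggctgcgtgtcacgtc
MRPS34: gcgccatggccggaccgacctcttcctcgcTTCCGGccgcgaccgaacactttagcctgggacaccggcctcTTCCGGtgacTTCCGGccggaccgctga
MRPL4: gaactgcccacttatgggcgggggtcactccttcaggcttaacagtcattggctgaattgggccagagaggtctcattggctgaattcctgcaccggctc
MRPS10: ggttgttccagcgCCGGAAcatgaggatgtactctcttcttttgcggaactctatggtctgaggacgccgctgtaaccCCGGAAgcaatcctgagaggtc
These lie at chr1:151763497-151763596 (minus strand, MRPL9), chr5:1799838-1799937 (minus, MRPL36), chr11:65122083-65122182 (plus, MRPL49), chr16:1773135-1773234 (minus, MRPS34), chr19:10251851-10251950 (plus, MRPL4) and chr6:42217862-42217961 (minus, MRPS10). MRPL36 and MRPL49 show a YY1 element, MRPS34 and MRPS10 show repeated ETS cores, and neither set of letters is in the 100 bases shown for MRPL9 and MRPL4. Within the full 300-base window, CCGGAA or AAGATGG was present in 5 of the 5 members that rose and have a window, in the 1 that fell and in 10 of the 15 not called. The elements were thus present in members that rose, that fell and that did not pass the test.

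Among the peaks that the authors listed as differential, those of the mitoribosomal genes were more often lower than higher in m6A after FTO knockdown, whereas overlapping peaks of the 2 lists, described further on, were about evenly split. In the authors' deposited table, 17 of the 24 differential peaks listed under members (70.8%) had lower m6A after knockdown and 7 had higher m6A, against 44.6% lower of all 8687 differential peaks. The median log2 change of m6A in that table, turned here to knockdown over control, was -0.41 for the members and 0.28 for all differential peaks. The table gives 1 value per peak from libraries combined by the authors, without replicate values, so no error between replicates can be given and no test of this share was made. Of the 24 peaks, 22 had an adjusted p under 0.05 in the authors' deposited table.

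Peaks are listed under the nearest gene, and 5 of the 24 lay on the gene model of a neighbour. These were the peaks listed under MRPS16 (on CFAP70), MRPS25 (RBSN), MRPS10 (TRERF1), MRPL53 (CCDC142) and MRPS34 (SPSB3). On the members' own gene models, the authors' deposited table held 19 peaks in 17 genes, of which 14 (73.7%) were lower and 5 higher. Over all 24 peaks, with the 5 on neighbours, both subunits had more lower than higher peaks in the authors' deposited table. The counts were 9 of 13 lower for the large subunit and 8 of 11 for the small subunit. By position, again with the peaks on neighbours, 12 of 17 peaks in the 3′ UTR were lower, against 46.6% of all 3′ UTR peaks in the authors' deposited table. Of 6 exonic peaks 4 were lower, against 45.8% of all exonic peaks.

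**Figure D2:**
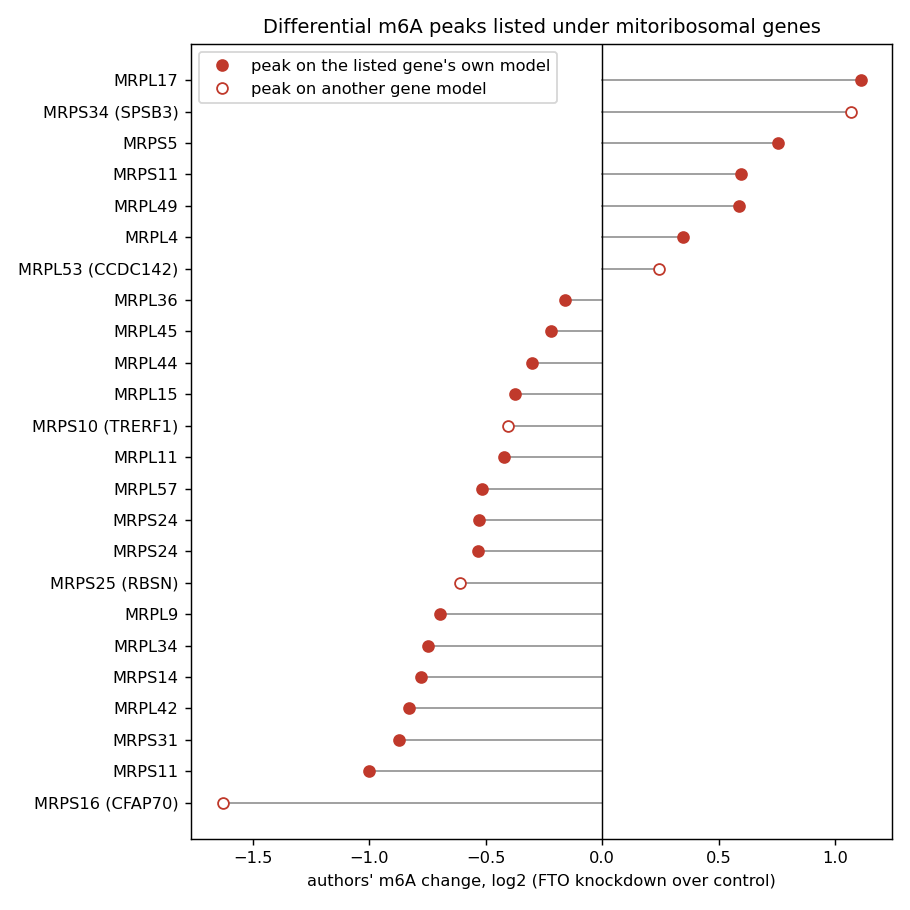
Log2 change of m6A (FTO knockdown over control, from the authors' deposited table) for the 24 differential peaks listed under mitochondrial ribosomal protein genes. Filled points are peaks on the gene's own model and open points are peaks on the model of the neighbour named in brackets. Of the 24 points, 17 lie left of 0, and the outermost point on the left (MRPS16) and the next to outermost on the right (MRPS34) are peaks of neighbours.

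The lowest values on own gene models were in MRPS11, MRPS31, MRPL42 and MRPS14. For MRPS11, a small subunit protein with a bacterial counterpart, the authors' deposited table gave -1.0 for an exonic peak (chr15:88468920-88472309), with an adjusted p of 0.0813, and 0.60 for a 3′ UTR peak (chr15:88476966-88477962), with an adjusted p of 9.33e-05. The 2 peaks of this gene thus differed in direction. For MRPS31, a mitochondrion-specific subunit, the authors' deposited table gave -0.88 (adjusted p = 5.75e-07) in an exon, with enrichments of IP over input of 3.59 in the knockdown list and 5.17 in the control list. For MRPL42, mitochondrion-specific as well, the authors' deposited table gave -0.83 (adjusted p = 0.0245). For MRPS14, with a bacterial counterpart, the authors' deposited table gave -0.78 (adjusted p = 3.16e-15) in the 3′ UTR. The knockdown list held no peak under the symbols MRPL42 and MRPS14, whose control peaks had enrichments of 2.18 and 3.75. Elsewhere on the MRPL42 gene model, the knockdown list had a peak of 2.16 and the control list several, the highest at 8.40. These were listed under RN7SL737P.

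MRPL34, a large subunit protein with a bacterial counterpart, had -0.75 (adjusted p = 3.16e-14) in its 3′ UTR in the authors' deposited table, with enrichments of 7.30 after knockdown and 15.0 in control. MRPL9 had -0.69 (adjusted p = 1.58e-27) in its 3′ UTR in the authors' deposited table, with a peak of enrichment 2.65 in the control list and none in the knockdown list. The 3′ UTR site of MRPS24 appeared as 2 rows of -0.53 in the authors' deposited table, since peaks there were called on MRPS24 and on the readthrough gene URGCP-MRPS24. Further own-model losses in the authors' deposited table were -0.52 for MRPL57, -0.42 for MRPL11 (adjusted p = 0.0537), -0.37 for MRPL15, -0.30 for MRPL44, -0.22 for MRPL45 and -0.16 for MRPL36. For MRPL45 the lists ran the other way, with enrichments of 6.06 in the knockdown list and 4.65 in the control list.

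Gains were fewer. The largest in the authors' deposited table was 1.11 (adjusted p = 0.0372) in an exon of MRPL17, where the knockdown list had a peak of enrichment 4.43 and the control list had none. MRPS5, a small subunit protein with a bacterial counterpart, had 0.76 (adjusted p = 6.92e-05) in the authors' deposited table, with enrichments of 4.20 after knockdown and 2.55 in control. MRPL49 had 0.59 (adjusted p = 2.34e-05) and MRPL4 had 0.35 (adjusted p = 2.51e-12) in the authors' deposited table, both in the 3′ UTR and with low enrichments of 1.68 and 1.37 in the knockdown list. The peak listed under MRPS34, 1.07 in the authors' deposited table with enrichments of 13.8 after knockdown and 7.16 in control, lay on SPSB3. The most negative value of all, -1.63 for the peak listed under MRPS16, lay on CFAP70.

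The genes that rose in expression included losses and gains of m6A. Among the 5 called members with a differential peak on their own model, MRPL9, MRPL36 and MRPL15 had lower m6A after knockdown in the authors' deposited table and MRPL49 and MRPL4 had higher m6A. The differential peaks listed under MRPS34 and MRPS10 lay on neighbours. The enrichment of a peak is taken over the input, which is also the source of the FPKM, so the m6A value and the expression value of a gene share the input libraries. MRPL17 and MRPS5, with the largest own-model gains, and MRPS31, MRPL42 and MRPS14, with the largest losses after MRPS11, did not pass the test of expression.

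**Figure D3:**
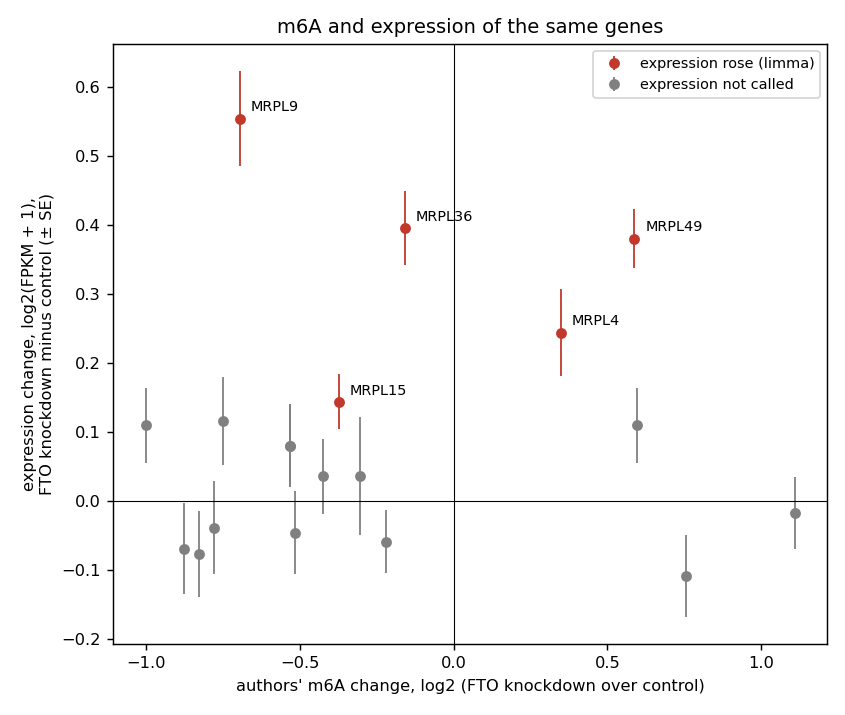
Change of m6A (horizontal, log2, FTO knockdown over control, from the authors' deposited table) and change of expression (vertical, difference of log2(FPKM + 1), knockdown minus control, bars are ± SE from limma) for the 19 differential peaks on the members' own gene models. Red points are the 5 genes whose expression rose and grey points those not called. The red points lie on both sides of 0 on the m6A axis.

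The peak lists, 1 per condition, labelled the peaks of the mitoribosomal genes mainly as 3′ UTR. Of 77 member peaks after knockdown, 70.1% were listed in the 3′ UTR (95% exact binomial interval 58.6 to 80.0%), and of 103 control peaks 74.8% (65.2 to 82.8%). Over all peaks the shares were 46.5% after knockdown and 47.6% in control. Exonic positions outside the UTRs made up 16.9% of member peaks after knockdown and 14.6% in control, against 39.6% of all peaks after knockdown and 39.8% in control. The share in the 5′ UTR was 13.0% after knockdown and 10.7% in control, against 13.9% of all peaks after knockdown and 12.6% in control. On own gene models alone, the 3′ UTR share was 67.7% after knockdown and 72.2% in control, against 41.7% of all such peaks after knockdown and 42.6% in control. The intervals cover counting error only, and 16 member peaks of the knockdown list and 18 of the control list shared bases with another member peak. Positions are the deposited labels, and in MRPL28, MRPL38 and MRPL41 a peak over the transcript's start was labelled 3′ UTR. The shares over all peaks include peaks listed under pseudogenes and non-coding genes, and protein-coding genes alone were not compared.

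**Figure D4:**
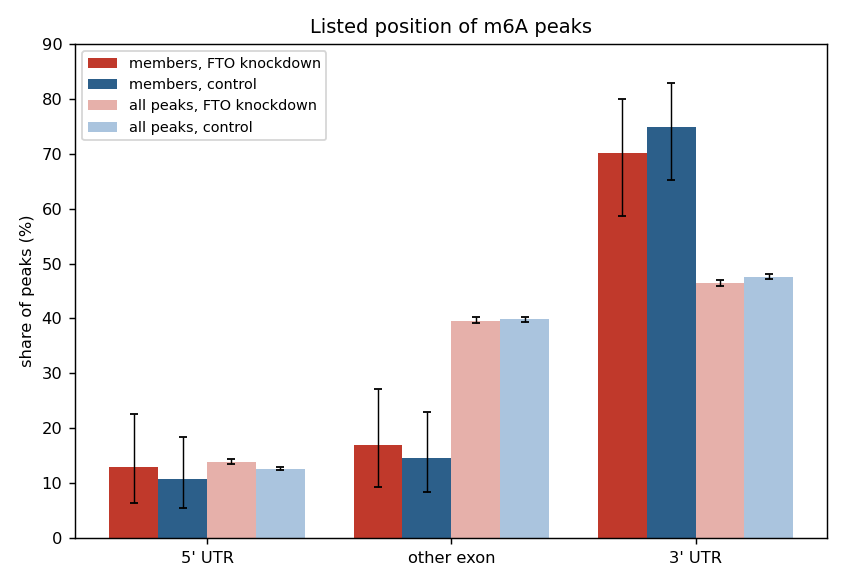
Share of peaks (%) listed in the 5′ UTR, in other exons and in the 3′ UTR, for peaks of mitochondrial ribosomal protein genes (dark) and all peaks (light) after FTO knockdown (red) and in control (blue). Bars start at 0 and error bars are 95% exact binomial intervals. The member bars exceed those of all peaks in the 3′ UTR (70.1% against 46.5% after knockdown, 74.8% against 47.6% in control) and are below them in other exons.

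Fewer member peaks were listed after knockdown, and their median enrichment was higher, as it was over all peaks. The knockdown list held 77 peaks in 46 members, and their enrichment had a median of 5.40 with quartiles of 3.05 and 8.81. The control list held 103 peaks in 55 members, with a median of 3.75 and quartiles of 2.02 and 7.88. Over all genes there were 28888 peaks after knockdown with a median of 7.05 and 39492 peaks in control with a median of 6.11. Of the members, 45 (80.4%) had a peak in both lists, against 68.5% of all genes with a peak. MRPL49, 1 of the 56, had a peak in the knockdown list alone, at 1.68, against 4.96% of all genes with a peak. In the control list alone, 10 of the 56 members had peaks, against 26.5% of all such genes. These counts are by listed symbol. Of the 10, MRPL12, MRPL42 and MRPS18B had knockdown peaks on their own gene models under other symbols, at up to 23.3, 2.16 and 1.68. The strongest control-only peaks were those of MRPL32, at 10.7 and 4.16, and MRPS14, at 3.75. The lowest such peak was that of MRPL11, at 1.56. Of the member peaks after knockdown, 88.3% overlapped a control peak of the same gene model by at least 1 bp, and of the control peaks 66.0% overlapped a knockdown peak, against 88.7% of all knockdown peaks and 57.6% of all control peaks.

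Where both lists had a peak at the same place, the enrichments were about equal on balance. On own gene models there were 51 overlapping pairs of peaks in 38 members, of which 26 were higher after knockdown, 24 lower and 1 equal. Each knockdown peak was paired with the control peak of largest overlap, ties going to the higher enrichment, and some control peaks were used more than once. The shorter MRPS27 peak (6.48), counted as lower against 7.52, also had a control peak of 6.46 at the identical position. The median ratio of knockdown over control was 1.02 for the members and 1.04 for the 19339 pairs of all genes. The share of pairs higher after knockdown was 51.0% for members and 53.5% for all genes. The lists carry no replicates, so single ratios have no error.

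The largest ratio was in MRPL28, a large subunit protein with a bacterial counterpart. Its 3′ UTR peak had an enrichment of 29.1 after knockdown (chr16:367029-368382) and 5.18 in control (chr16:367059-367418), a ratio of 5.62, with a longer peak called after knockdown. Further control peaks of 1.35 and 1.37 lay within the span of this knockdown peak, so the ratio compares stretches of unlike length. No differential peak was listed for MRPL28. The next ratios were 2.14 for a second MRPL28 peak (11.3 after knockdown, 5.28 in control), 1.97 for MRPL38 (12.5 after knockdown, 6.34 in control) and 1.82 for MRPL40 (16.7 after knockdown, 9.16 in control). At the other end, 1 of the MRPL57 peaks had 3.76 after knockdown and 12 in control, MRPS33 had 5.01 after knockdown and 15.7 in control, and MRPL16 had 4.77 after knockdown and 13.1 in control. The control peak of MRPL57 was wider and was met by a second knockdown peak of 7.62.

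**Figure D5:**
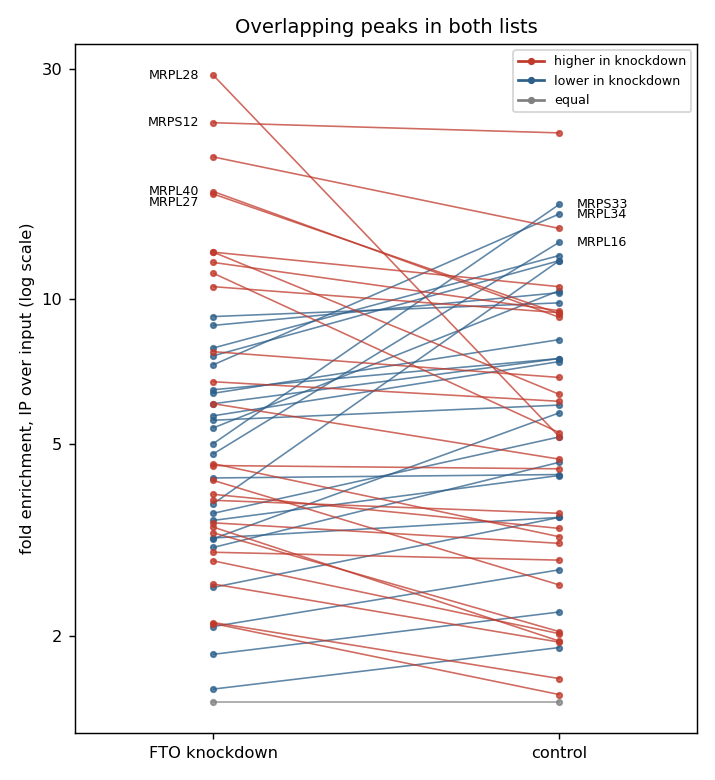
Fold enrichment of IP over input (log scale) for the 51 overlapping pairs of peaks on the members' own gene models, with FTO knockdown on the left and control on the right. Each line is 1 pair, red where knockdown is higher (26), blue where it is lower (24) and grey where equal (1). The steepest line upward to the left is MRPL28, at 29.1 after knockdown and 5.18 in control, and MRPS12 is high in both lists, at 23.2 after knockdown and 22.1 in control.

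Some own-model peaks were strong in both lists. MRPS12, the small subunit protein of the decoding centre, had 23.2 after knockdown and 22.1 in control at the same position, chr19:38932507-38933162. MRPS25, a mitochondrion-specific subunit, had 19.7 after knockdown and 14 in control. Several of the highest values listed under members belonged to neighbours. In the knockdown list these were 33.6 under MRPL58 (on CDR2L), 24.5 under MRPL34 (on ABHD8) and 20.0 under MRPL51 (on NCAPD2). In the control list they were 21.1 under MRPL34 (ABHD8), 19.3 under MRPS16 (CFAP70) and 16.6 under MRPS5 (ZNF514). Of the member peaks, 80.5% after knockdown and 76.7% in control lay on the member's own model, against 78.3% of all peaks after knockdown and 77.4% in control. MRPL12, MRPL53, MRPL58, MRPS10, MRPS18B and MRPS34 had no listed peak on their own model under their own symbol.

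The reverse also occurred, since 21 knockdown and 30 control peaks on gene models of this family were listed under other symbols. MRPL12 had such a peak with an enrichment of 23.3 after knockdown and 13.0 in control (chr17:81706960-81707517, listed under AC139530). MRPL14, not among the 56, had 23.0 after knockdown and 13.4 in control (listed under TMEM63B), and MRPS34 had 8.11 after knockdown and 6.67 in control (listed under NME3). In all, 12 of the gene models with such peaks belonged to genes outside the 56. Counts by symbol therefore leave out part of the m6A of this family.

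Peaks also covered the start of some members' transcripts. Of the 53 members with a RefSeq start, 9 had an own-model peak over their first 50 transcribed bases, 7 of them in the knockdown list and 9 in the control list. The strongest were MRPL40, at 16.7 after knockdown and 9.16 in control, MRPL38, at 12.5 after knockdown and 6.34 in control, and MRPL28, at 11.3 after knockdown and 5.28 in control. In 3 of the 9 (MRPL28, MRPL34 and MRPS11) the first transcribed base in RefSeq is A, the base that can carry m6Am, and A is first in 44.4% of all promoter windows. None of the 9 held GGAC, a common m6A sequence, on the transcript's strand in these 50 bases, which 18.9% of all windows hold. In 3 genes (MRPL28, MRPL38 and MRPL41) the peak over the start was listed as 3′ UTR.

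Other genes of the pathway gave a mixed picture outside the mitochondrial transcripts. Of 8 tested transcripts encoded in mitochondrial DNA, 6 rose and none fell (24.5% and 37.9% of all tested genes). MT-CYB, cytochrome b of complex III, had 102.9, 85.6 and 96.6 FPKM after knockdown, against 44.5, 44.0 and 53.1 FPKM in control cells, a change of 0.995 (SE 0.0886, adjusted p = 6.57e-05, limma). MT-ND1, a subunit of complex I, had 180.3, 148.8 and 182.9 FPKM after knockdown, against 104.1, 106.8 and 118.1 FPKM in control cells, a change of 0.63 (SE 0.0859, adjusted p = 0.000474, limma). In both genes every knockdown library was above every control library. The knockdown list held peaks for 0 of 15 mitochondrially encoded genes and the control list for 10, and the part of this difference in the result was not tested. The count of transcripts that rose was 4 without control replicate 1, without control replicate 2, without knockdown replicate 1 or with no filter on low values.

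Mitoribosomal proteins with other symbols had 2 tested genes, and both rose, against 24.5% of all tested genes. GADD45GIP1, a large subunit protein, had 5.29 ± 0.398 FPKM after knockdown and 3.50 ± 0.317 FPKM in control cells (SD, n = 3 each), a change of 0.48 (adjusted p = 0.000577, limma). AURKAIP1, a small subunit protein, had 15.3 ± 0.676 FPKM after knockdown and 13.3 ± 1.48 FPKM in control cells (SD, n = 3 each). Its call (adjusted p = 0.0459, limma) was lost in 8 of 13 alternatives, among them the fits without each library other than control replicate 3. Of 16 tested factors of mitoribosome assembly, 6 rose and 5 fell with the values as deposited, against 24.5% and 37.9% of all tested genes. After quantile normalization 9 of these factors rose and 4 fell, and after centring 9 rose and 3 fell. Of all 4515 tested genes, 1425 rose and 1291 fell after quantile normalization, and 1507 rose and 1213 fell after centring. MPV17L2, which takes part in assembly at the inner membrane, fell to 11.8 ± 0.0840 FPKM after knockdown, against 18.2 ± 1.36 FPKM in control cells (SD, n = 3 each, change -0.59, adjusted p = 7.33e-05, limma). TRUB2, a pseudouridine synthase of mitochondrial RNA granules, rose to 7.89 ± 0.392 FPKM, against 5.74 ± 0.136 FPKM in control cells (SD, n = 3 each, change 0.40, adjusted p = 0.000250, limma).

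All 3 tested mitochondrial translation factors fell with the values as deposited, against 37.9% of all tested genes. Of the 3, 2 fell after quantile normalization and 1 after centring, against 1291 and 1213 of all 4515 tested genes. MTIF3, an initiation factor, had 2.13 ± 0.169 FPKM after knockdown and 3.30 ± 0.140 FPKM in control cells (SD, n = 3 each, change -0.46, adjusted p = 0.000326, limma). OXA1L, which inserts newly made proteins into the inner membrane, had 15.3 ± 0.490 FPKM after knockdown and 17.5 ± 0.617 FPKM in control cells (SD, n = 3 each, change -0.18, adjusted p = 0.00727, limma), and this call was lost after centring on the median (adjusted p = 0.129). The third, MTRF1, had an adjusted p of 0.0389 (limma) and changed sign after quantile normalization. Its call was also lost after centring, without control replicate 1 or 2 and without knockdown replicate 1 or 2. Among 6 tested genes of mitochondrial transcription and its control, 1 rose and 1 fell, against 24.5% and 37.9% of all tested genes. PPRC1, a coactivator of nuclear genes for mitochondrial proteins, rose to 63.0 ± 2.44 FPKM, against 42.1 ± 0.508 FPKM in control cells (SD, n = 3 each, change 0.57, adjusted p = 3.02e-05, limma). ESRRA, a nuclear receptor with such targets, had 14.2 ± 0.263 FPKM after knockdown and 15.5 ± 0.135 FPKM in control cells (SD, n = 3 each, adjusted p = 0.0191, limma). Its call was lost after centring (adjusted p = 0.524) and without control replicate 2, knockdown replicate 1 or knockdown replicate 3.

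Of 14 tested genes for proteins of the cytosolic ribosome, 7 fell and none rose, against 37.9% and 24.5% of all tested genes. This list held only genes with a listed FPKM, and so need not stand for the whole family. After centring 3 fell and 1 rose, against 1213 and 1507 of all 4515 tested genes. After quantile normalization 8 fell and 1 rose, against 1291 and 1425 of all tested genes. Without control replicate 1 or without knockdown replicate 3, 4 fell. RPS28 fell to 28.1 ± 0.301 FPKM after knockdown, against 46.6 ± 4.04 FPKM in control cells (SD, n = 3 each, change -0.71, adjusted p = 5.42e-05, limma). RPS24 fell to 12.7 ± 0.605 FPKM, against 18.0 ± 1.59 FPKM in control cells (SD, n = 3 each, change -0.47, adjusted p = 0.000565, limma). The median change was -0.12 for these 14 genes, 0.01 for the 22 mitoribosomal genes and -0.07 for all tested genes, and the difference between the families was not tested.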

How the data were processed

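The authors deposited FPKM values for each input library, per the file headers. Their table of differential peaks held a log2 m6A change, a p-value and the log10 of the adjusted p as a score, all as deposited; 283 of its 8970 rows without a gene name were not used. The deposited log2 change was control over knockdown (rho -0.783 with the log2 of knockdown enrichment over control enrichment, 5833 peaks) and was turned round. Each deposited peak list gave a fold enrichment ratio and log10 p scores per peak; 1 list per condition means that replicates had been combined by the authors. The peak caller is not given in the sources used here. Tools in the submitters' processing notes are StringTie 1.3.0, HISAT2 2.0 and Bowtie 0.12.2. The notes give the mouse build mm8, but IDs are human and 96.1% of 24159 transcripts overlapped their gene in RefSeq GRCh38.p14, so positions, counted from 1, are read as GRCh38.

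Genes whose mean reached 1 FPKM were tested on log2(FPKM + 1), which understates changes of low genes, with limma 3.58.1 in R 4.3.3 (empirical Bayes with trend, two-sided, no block, Benjamini-Hochberg over 4515 genes, threshold 0.05). The test was checked on simulated data. Genes with per-library values were the called members, the 4 most abundant, those of the 5 largest gains and losses of m6A and those with several differential peaks; of each other list, the 2 genes of smallest p were named. Members and lists were chosen with earlier results of these data known, and the promoter and start sequences after values were seen. Alternatives covered pseudocount, filter, scaling, left-out libraries, block, peak thresholds and overlap.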

Additional observations from a re-analysis of the deposited data

How the results depend on the processing

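The 6 called members other than MRPL15 (MRPL9, MRPL36, MRPL49, MRPS34, MRPL4 and MRPS10) kept their direction and an adjusted p under 0.05 in all 13 alternative fits, as did FTO in each fit that held it (its mean is under 5 FPKM). Of 281 values of single members under the alternatives, 243 kept direction and side of the threshold. The number of members lower after knockdown was 2 after quantile normalization, against 1291 of all 4515 tested genes. It was 1 to 3 when libraries were left out, with 3 without control replicate 3 (MRPS10, MRPL42 and MRPS5). That fit called 3018 genes and 10 members, against 2819 genes and 7 members with all libraries. With a mean of at least 5 FPKM, 1603 genes and 7 members were called, 6 of the members higher and 1 lower. Fewer genes entered this fit, as the median of all genes tested at 1 FPKM was 5.42 FPKM. Centring added MRPL34, MRPS11 and MRPS24 to the calls, and quantile normalization added MRPL34, MRPS11 and MRPS16 and took away MRPL15; the cause was not tested.

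Changes of uncalled members that changed sign after quantile normalization were -0.0183 for MRPL11, 0.0749 for MRPL42, 0.0149 for MRPL57, 0.0625 for MRPS14, 0.0056 for MRPS25 and 0.0745 for MRPS31. After centring they were 0.0755 for MRPL17, 0.0158 for MRPL42, 0.0339 for MRPL45, 0.0758 for MRPL53, 0.0469 for MRPL57, 0.0544 for MRPS14, 0.0498 for MRPS16, 0.0170 for MRPS25 and 0.0237 for MRPS31. With libraries left out, changes that crossed 0 ranged from -0.0151 to 0.1172 for MRPL44, -0.0727 to 0.0198 for MRPS14, -0.0535 to 0.0287 for MRPL17, -0.126 to 0.0751 for MRPL53 and -0.003 to 0.081 for MRPL11.

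The labels' replicate numbers did not pair the samples (correlations of deviations of -0.077, 0.028 and 0.025). With the replicate number as a block, 2747 genes and 7 members were called, 6 higher and 1 lower, and of the named genes of other lists MTRF1 lost its call.

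At an absolute log2 m6A change of at least 1, 2 member peaks were lower and 2 higher, against 36.6% lower of all such peaks. With at least 4-fold enrichment, 47 of 77 member peaks remained after knockdown and 51 of 103 in control. The median enrichment over all peaks was 7.05 after knockdown and 6.11 in control. With a reciprocal overlap of at least 50%, 72.7% of knockdown and 53.4% of control member peaks overlapped the other list. Over all peaks these shares were 53.6% and 39.2%. Alternatives restricted to own gene models were added after seeing the data. The lack of replicate values for m6A, the unknown depth and the listing by nearest gene limit these results, and expression was tested only for genes with a differential peak.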
